A study of Mus musculus with 27 samples.

Results

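The 40 genes described here belong to the ATF4 and unfolded protein response pathways, and were chosen by name from the 54532 genes of the deposited count table. These genes were picked with earlier results of these data known. They fall into 25 amino acid response genes (ATF4, its partners, amino acid enzymes and transporters, and secreted factors) and 15 endoplasmic reticulum (ER) genes (the transcription factor XBP1, chaperones, disulfide isomerases and degradation factors). All 40 passed the filter on low counts in both experiments. The data are RNA sequencing counts of 27 mixed glia libraries, from cultures of astrocytes, microglia and oligodendrocyte-lineage cells made from cortices of P3-P6 C57BL/6 mice, grown to 14 days in vitro, then treated for 24 h. Experiment 1 held 5 groups of 3 libraries: lipopolysaccharide (LPS, 100 ng/mL, a bacterial inflammatory stimulus) with interferon gamma (IFN-gamma, 20 ng/mL) and bryostatin (50 nM, a modulator of protein kinase C), LPS with IFN-gamma, LPS with bryostatin, LPS alone, and untreated glia. Experiment 2 held 4 groups of 3: interleukin 4 (IL-4, 20 ng/mL) with bryostatin, IL-4 alone, bryostatin alone, and its own untreated glia. Comparisons were kept within an experiment. No genotype beyond the C57BL/6 strain is given, and nothing in the labels tells if replicates came from separate cultures or if animals were pooled. Each p-value is thus set against library-to-library spread alone, possibly technical.

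ATF4 is the main transcription factor of the integrated stress response. Kinases that sense ER stress, amino acid shortage, double-stranded RNA or haem shortage phosphorylate the initiation factor eIF2, which lowers general protein synthesis while ATF4 protein is still made, and ATF4 then turns on genes for amino acid synthesis, uptake and tRNA charging. The unfolded protein response shares this branch through the kinase PERK, and its other branches, ATF6 and IRE1 with XBP1, raise the chaperones and the degradation machinery of the ER. In glia the pathway is known from vanishing white matter disease, in which mutations in eIF2B, the factor that phosphorylated eIF2 inhibits, harm astrocytes and oligodendrocytes. Astrocytes also make L-serine through PHGDH and supply it to neurons.

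Library totals ran between 17230058 and 28687281 counts. Of the 27 libraries, 3 correlated with both other libraries of their group at r under 0.98: replicate 1 of each untreated group and replicate 2 of bryostatin alone. In experiment 1, Sox10, a marker of oligodendrocyte-lineage cells, was at 0.161 CPM (counts scaled to a common library size with TMM factors) in untreated replicate 1, against 33.4 and 30.1 CPM in the other two. In experiment 2 the split ran the other way, with 39.1 CPM in untreated replicate 1 and 0.281 and 0.228 CPM in the other 2. Pdgfra, of the same lineage, split alike, with 3.92 CPM in untreated replicate 1 of experiment 1, against 135 and 154 CPM. Olig1 did not, with 404 CPM there, against 381 and 353 CPM, nor did Olig2, with 95.4 CPM, against 98 and 90.3 CPM. The Sox10 level alone is thus no measure of how many cells of this lineage a library held. The remaining libraries of experiment 1 held 7.12 to 34.5 CPM of Sox10 and those of experiment 2 held 0.0354 to 0.483 CPM, so both untreated replicate 1 libraries go against the Sox10 level of their experiment. Over 15317 genes, the library labelled untreated replicate 1 of experiment 1 correlated at r = 0.956 and 0.957 with its own group and at 0.991 with untreated replicates 2 and 3 of experiment 2. The library labelled untreated replicate 1 of experiment 2 correlated at 0.939 and 0.948 with its own group and at 0.97 and 0.979 with untreated replicates 2 and 3 of experiment 1. These 2 labels may thus have been exchanged, which cannot be settled here. Both libraries were kept as labelled, and every mean and fold change against untreated glia includes them unless stated otherwise. For most of these comparisons, counts of called members and calls that changed are also given without them. Most fold changes and medians, the FPKM levels and the counts of other gene lists are given only with them. In bulk RNA, fewer cells of a type and less RNA per cell cannot be told apart. The summed level of 7 astrocyte markers was 6160 to 6840 CPM with LPS and IFN-gamma, 8400 to 8940 CPM with LPS, and 11400 to 14400 CPM in untreated glia of experiment 1. For 7 microglial markers the sums were 236 to 255 CPM, 338 to 382 CPM and 886 to 1000 CPM in the same groups. None of these 14 markers was at 0 in any of these libraries. The 5 markers of oligodendrocyte precursors summed to 203 to 217 CPM, 496 to 529 CPM and 523 to 674 CPM, and the 4 fibroblast markers to 1030 to 1660 CPM, 1650 to 1980 CPM and 541 to 1240 CPM. The 4 neuron markers summed to 101 to 117 CPM, 48.5 to 52.9 CPM and 44.3 to 49.5 CPM, most of it Tubb3, while Rbfox3 was at 0 to 0.286 CPM in these groups. Single markers did not all follow these sums. The microglial marker Aif1 was at 50.8 to 52 CPM with LPS, against 19.4 to 21.2 CPM untreated, while the other microglial markers were lower. The astrocyte marker Aqp4 was at 1370 to 1430 CPM with LPS, against 841 to 1250 CPM. Gfap, the largest part of the astrocyte sum, was at 4680 to 5200 CPM, against 7930 to 9890 CPM. Aldoc, Gja1 and Sox9 were lower with LPS, and Aldh1l1 and Slc1a3 overlapped. With LPS and IFN-gamma Slc1a3 was at 1290 to 1430 CPM, above the 1210 to 1240 CPM with LPS, while the astrocyte sum was lower. The part of such shifts in the results below was not tested. The endothelial marker Cldn5 was at 0 in 26 of the 27 libraries.

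Motif matches fell on different promoters in the 2 sets of genes, and 6 promoters of genes the results turn on are shown for that reason. RefSeq promoter windows (250 bases before to 50 after the start, GRCm38.p6) matched 36 of the 40 genes, with 40 windows in all. 3 motifs were searched on both strands: the C/EBP-ATF response element (CARE, TGATGNAAN), the unfolded protein response element (UPRE, TGACGTGN) and the ER stress response element (ERSE, CCAAT and CCACG with 9 bases between them). No match overlapped another in these windows. The windows below run 5′ to 3′ on the gene's strand, with motif letters in capitals: a CARE in the first 4, an ERSE in Calr, and a UPRE followed by an ERSE in Hspa5.
Trib3 (chr2:152344011-152344310, minus strand): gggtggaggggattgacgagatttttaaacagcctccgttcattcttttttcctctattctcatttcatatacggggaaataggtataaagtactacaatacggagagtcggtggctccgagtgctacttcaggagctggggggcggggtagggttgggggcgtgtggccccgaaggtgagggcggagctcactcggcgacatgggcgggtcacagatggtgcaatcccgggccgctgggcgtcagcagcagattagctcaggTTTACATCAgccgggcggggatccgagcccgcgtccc
Nupr1 (chr7:126625421-126625720, minus strand): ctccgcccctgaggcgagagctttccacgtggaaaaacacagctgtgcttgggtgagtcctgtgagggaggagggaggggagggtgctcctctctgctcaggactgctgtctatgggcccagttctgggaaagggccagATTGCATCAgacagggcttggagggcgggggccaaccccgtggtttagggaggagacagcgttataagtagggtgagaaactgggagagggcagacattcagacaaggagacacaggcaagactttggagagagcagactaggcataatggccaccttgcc
Asns (chr6:7693160-7693459, minus strand): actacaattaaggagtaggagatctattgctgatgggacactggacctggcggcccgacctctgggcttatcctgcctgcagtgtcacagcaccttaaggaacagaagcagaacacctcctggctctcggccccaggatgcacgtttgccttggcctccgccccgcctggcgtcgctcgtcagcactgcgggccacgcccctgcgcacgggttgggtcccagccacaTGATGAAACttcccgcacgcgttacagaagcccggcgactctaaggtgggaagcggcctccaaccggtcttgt
Chac1 (chr2:119350992-119351291, plus strand): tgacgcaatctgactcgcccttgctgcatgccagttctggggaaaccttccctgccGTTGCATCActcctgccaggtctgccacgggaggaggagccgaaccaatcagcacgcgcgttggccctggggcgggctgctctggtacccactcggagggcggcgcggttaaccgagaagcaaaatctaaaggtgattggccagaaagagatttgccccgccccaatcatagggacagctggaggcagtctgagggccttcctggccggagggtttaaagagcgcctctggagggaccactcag
Calr (chr8:84846882-84847181, minus strand): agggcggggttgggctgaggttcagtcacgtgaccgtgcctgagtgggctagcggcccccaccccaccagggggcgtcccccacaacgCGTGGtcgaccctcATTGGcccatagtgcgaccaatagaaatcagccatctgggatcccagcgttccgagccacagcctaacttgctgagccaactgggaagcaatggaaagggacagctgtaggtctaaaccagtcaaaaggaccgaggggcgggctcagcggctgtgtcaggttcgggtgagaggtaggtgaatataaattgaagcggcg
Hspa5 (chr2:34771840-34772139, plus strand): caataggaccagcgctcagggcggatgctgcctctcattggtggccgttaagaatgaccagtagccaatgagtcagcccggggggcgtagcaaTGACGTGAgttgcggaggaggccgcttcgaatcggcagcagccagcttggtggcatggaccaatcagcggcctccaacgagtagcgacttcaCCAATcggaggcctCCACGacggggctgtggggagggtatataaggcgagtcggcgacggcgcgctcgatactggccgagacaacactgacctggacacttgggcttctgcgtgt
A CARE was found in 6 of 27 windows of amino acid response genes (Trib3, Nupr1, Chac1, Asns, Pycr1 and Pck2) and in 1 of 13 windows of ER genes (Herpud1), against 3.95% of all 32851 windows of the table. The ERSE was found in 0 of 27 windows of amino acid response genes and in 6 of 13 windows of ER genes (Hspa5, Hsp90b1, Calr, Dnajc3, Pdia6 and Creld2), against 0.119% of all windows. A UPRE was found in 1 window, that of Hspa5, against 2.01% of all windows. The CARE of Trib3 lies 14 to 22 bases after the start, and the other matches lie before it. A match is only a description of these letters in these windows. No window was given for Cth, Slc7a5, Hyou1 and Manf.

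**Figure D1:**
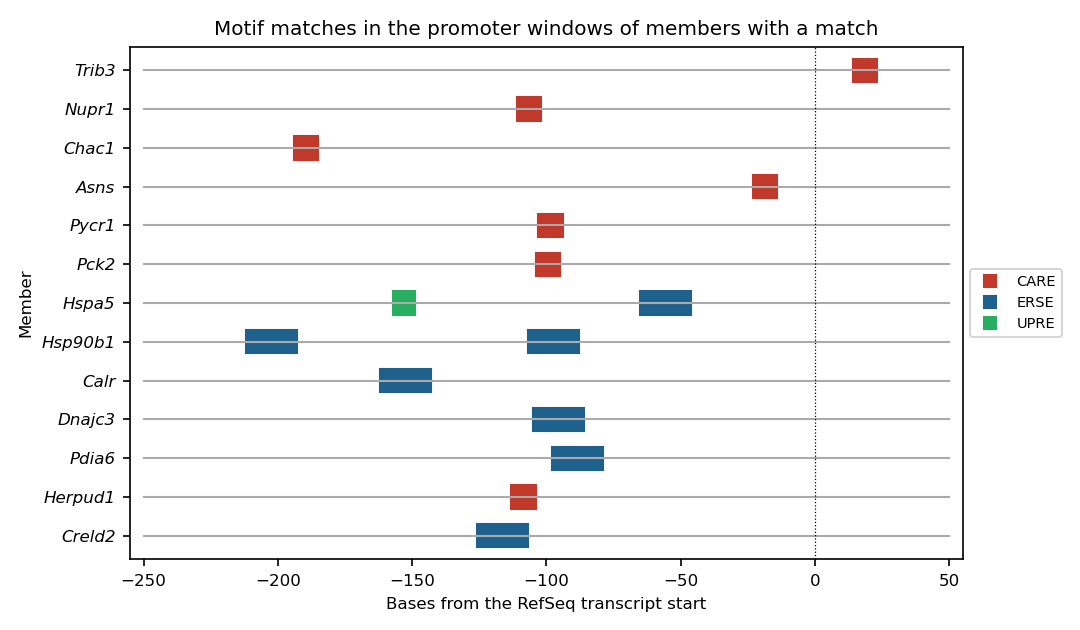
Positions of the motif matches in the promoter windows of the 13 genes with a match, in bases from the RefSeq transcript start (0, dotted), with boxes coloured by motif. CARE boxes sit in 6 amino acid response genes and Herpud1, ERSE boxes in 6 ER genes (Hsp90b1 has 2), and the UPRE box in Hspa5.

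The 40 genes span a wide range of transcript levels. Per length, by the authors' deposited FPKM, the chaperones led in untreated glia of experiment 1, with Calr at 241 ± 13.7 FPKM and Hspa5 at 162 ± 10.6 FPKM (SD, n = 3). Atf4 stood at 37.4 ± 5.68 FPKM, at rank 11 of the 40, and Ddit3 at 8.52 ± 0.861 FPKM, at rank 29. The lowest were Gdf15 at 0.461 ± 0.222 FPKM and Stc2 at 0.378 ± 0.0701 FPKM. With LPS and IFN-gamma Calr was again at rank 1, while Atf4 stood at rank 4 with 204 ± 21.9 FPKM, Nupr1 at rank 9 with 131 ± 11.8 FPKM and Ddit3 at rank 10 with 83 ± 10.5 FPKM.

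LPS alone was compared with untreated glia to see what this stimulus does to the pathway. Nupr1, Ddit3 and 5 of the 7 ER chaperone genes rose, while the enzymes of serine synthesis fell. Of the 25 amino acid response genes, 13 rose and 4 fell, where 19.5% of all 16073 genes tested were called higher and 18.8% lower at an edgeR adjusted p under 0.05. Of the 15 ER genes, 10 rose and 1 fell. The median log2 fold change was 0.37 for the amino acid response genes and 0.66 for the ER genes, beside -0.01 for all genes tested.

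Among the regulators, Atf4 (ENSMUSG00000042406, chr15:80255184-80257541 in the deposited annotation, GRCm38) had 175, 176 and 171 CPM with LPS, against 100, 82.8 and 72.6 CPM in untreated glia. Ddit3 (ENSMUSG00000025408, chr10:127290774-127296288), which encodes CHOP, the death-associated partner of C/EBP factors, had 48.3, 51.8 and 46.9 CPM with LPS, against 13.8, 15.6 and 12.8 CPM untreated. Neither gene's groups overlapped. Group overlap, here and below, describes the same libraries as the test and adds no separate support. Its share over all genes is not known. The log2 fold change was 1.03 ± 0.11 (SE) for Atf4 (edgeR adjusted p = 1.574e-06) and 1.80 ± 0.11 for Ddit3 (adjusted p = 8.061e-10). Nupr1, a small stress-induced chromatin protein, was the member that moved most. It had 293, 335 and 340 CPM with LPS, against 10.4, 23 and 18.6 CPM untreated, a log2 fold change of 4.22 ± 0.22 (adjusted p = 9.399e-10). Every LPS library thus lay more than 10 times above every untreated one. The partners Atf5 (0.69) and Cebpg (0.28) and the pseudokinase Trib3 (0.86), which binds ATF4 and AKT, rose less, while Ppp1r15a, Sesn2 and Ddit4 did not pass the test, with log2 fold changes of 0.01 to 0.10. Ppp1r15a encodes GADD34, which takes the phosphate off eIF2, and Sesn2 and Ddit4 restrain the growth kinase complex mTORC1. Chac1, which degrades glutathione, was at 0.66 with an adjusted p just over the threshold (0.05029).

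The amino acid enzymes went apart under LPS. Phgdh, the first enzyme of serine synthesis, had 59.5, 60.8 and 55 CPM with LPS, against 138, 161 and 152 CPM untreated. Its log2 fold change was -1.36 ± 0.11 (adjusted p = 3.87e-08), and the next steps of the same route, Psat1 (-0.68) and Psph (-0.34), fell with it. The Psph call was lost without LPS replicate 3, untreated replicate 2 or untreated replicate 3 (adjusted p = 0.0574, 0.0584 and 0.0926). The mitochondrial folate enzyme Mthfd2 went the other way, with 37.4, 41.3 and 35.8 CPM, against 14.9, 16.7 and 14.6 CPM, a log2 fold change of 1.31 ± 0.10 (adjusted p = 2.847e-08). So the 5 serine and folate genes split into 3 that fell and 2 that rose, the second being Shmt2 (0.37), which makes glycine from serine. Cth, which makes cysteine from cystathionine, fell by 1.04 on the log2 scale, while Asns (asparagine synthetase, 0.94) and Aldh18a1 (first step of proline synthesis, 0.88) rose. Pck2, a mitochondrial carboxykinase, rose by 0.32, a call lost without LPS replicate 1 or 2 or untreated replicate 1 or 3 (adjusted p = 0.0817 to 0.148). The transporter genes Slc7a5, Slc3a2 and Slc7a1, which carry leucine with its heavy chain and arginine, did not pass the test, with log2 fold changes of -0.25 to 0.32. Without untreated replicate 1, Slc7a5 and Slc7a1 were called (adjusted p = 0.0215 and 0.0334), and DESeq2 called Slc3a2 (adjusted p = 0.03). Gdf15, a secreted stress hormone, had 1.98, 2.28 and 1.64 CPM, against 0.375, 0.988 and 1.1 CPM, a log2 fold change of 1.24 ± 0.34 (adjusted p = 0.008862). Stc2, a secreted glycoprotein, was called at 0.76, a call lost without the same libraries taken singly (adjusted p = 0.0751 to 0.146).

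Among the ER genes, Sdf2l1, a component of ER chaperone complexes, moved most with LPS. It had 37, 39.7 and 37.7 CPM, against 14.6, 16.6 and 14.8 CPM untreated, a log2 fold change of 1.31 ± 0.10 (adjusted p = 2.177e-08). Hspa5, which encodes BiP, the main ER chaperone, had 1180, 1210 and 1190 CPM, against 619, 679 and 683 CPM, a log2 fold change of 0.85 ± 0.08 (adjusted p = 1.598e-07). Xbp1 had 97.7, 102 and 102 CPM, against 60.5, 68.1 and 62 CPM, a log2 fold change of 0.66 ± 0.08 (adjusted p = 6.562e-06). In all 3 genes the groups stood clear of each other. The lectin chaperone Calr (0.93), the isomerase Pdia6 (0.81), the chaperones Hsp90b1 (0.77) and Hyou1 (0.74), and the secreted ER proteins Creld2 (0.74) and Manf (0.48) rose as well. Dnajc3, a co-chaperone that also inhibits PERK, fell by 0.48. Herpud1, an ER-associated degradation factor, was called at 0.18 with an adjusted p of 0.04901, and that call was lost under each of the 10 alternatives. Dnajb9, Pdia4, Edem1 and Sel1l were at -0.15 to 0.14 and not called. Without untreated replicate 1, 12 amino acid response genes rose and 5 fell, and 9 ER genes rose and 1 fell, where 21.7% of all genes were called higher and 21.1% lower.

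**Figure D2:**
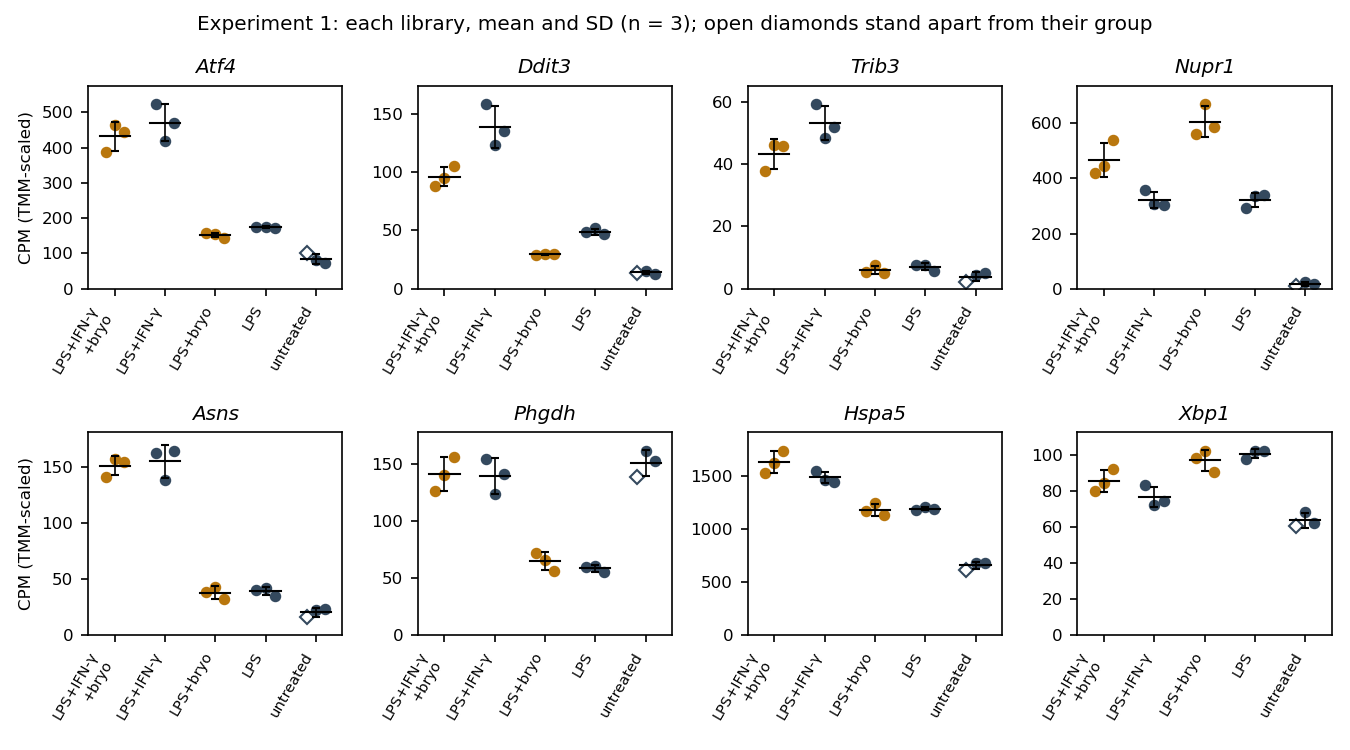
CPM scaled with TMM factors (linear axis) of 8 members in the 15 libraries of experiment 1, each point a library, with mean and SD (n = 3), bryostatin groups in orange and libraries that stand apart as open diamonds. With LPS and IFN-gamma Trib3 sits at 48.3 to 59.1 CPM, above every LPS library (5.79 to 7.76 CPM), whereas Nupr1 reached its LPS level without IFN-gamma and Phgdh was at 55 to 71.6 CPM in the groups with LPS but no IFN-gamma.

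IFN-gamma added to LPS was compared with LPS alone. Nearly every amino acid response gene rose, including those that LPS had lowered, while the ER genes split. Of the 25 amino acid response genes 23 rose and 0 fell by edgeR, where 19.2% of all genes tested were called higher and 16.8% lower. At an unadjusted p under 0.05 the same count was 23, where 7199 of all 16073 genes had one. DESeq2 also called 23 higher and 0 lower. Of the 15 ER genes 8 rose and 4 fell. The median log2 fold change was 1.26 for the amino acid response genes and 0.22 for the ER genes, beside -0.01 for all genes tested.

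Atf4 had 522, 418 and 470 CPM with LPS and IFN-gamma, against the 175, 176 and 171 CPM with LPS given above, a log2 fold change of 1.43 ± 0.11 (adjusted p = 5.604e-08). Ddit3 had 158, 123 and 135 CPM, against 48.3, 51.8 and 46.9 CPM, a log2 fold change of 1.5 ± 0.1 (adjusted p = 1.01e-08). Trib3, whose promoter is shown above, had 59.1, 48.3 and 51.8 CPM, against 7.76, 7.6 and 5.79 CPM, a log2 fold change of 2.91 ± 0.20 (adjusted p = 2.634e-08). The groups of all 3 regulators were far apart. Nupr1 did not follow them, with 357, 306 and 302 CPM, against 293, 335 and 340 CPM, and a log2 fold change of 0.00 with a 95% interval of -0.37 to 0.36. Both Nupr1 and Trib3 hold a CARE. Ppp1r15a (1.16), Sesn2 (1.26) and Ddit4 (0.91), which LPS alone had left without a call, rose here. Chac1 had 33.3, 24.2 and 29.2 CPM, against 8.54, 8.64 and 9.28 CPM, a log2 fold change of 1.71 ± 0.24 (adjusted p = 5.051e-05), and Atf5 and Cebpg each rose by 0.74.

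All 5 serine and folate genes rose with IFN-gamma, by 0.83 (Psph) to 1.63 (Mthfd2) on the log2 scale. Phgdh had 154, 123 and 141 CPM with LPS and IFN-gamma, against 59.5, 60.8 and 55 CPM with LPS, a log2 fold change of 1.26 ± 0.11 (adjusted p = 2.048e-07). Set against untreated glia, the same LPS and IFN-gamma libraries were at a log2 fold change of -0.11 ± 0.11 for Phgdh and their range overlapped the untreated 138 to 161 CPM. Cth had 23.5, 25 and 26.5 CPM, against 5.95, 5.51 and 5.24 CPM, a log2 fold change of 2.16 ± 0.13 (adjusted p = 3.404e-09). Asns had 162, 138 and 164 CPM, against 40.3, 42.5 and 35.1 CPM, a log2 fold change of 1.98 ± 0.13 (adjusted p = 1.218e-08). For both enzymes the lowest library with IFN-gamma was more than 3 times the highest with LPS. Pck2 (1.36) and Aldh18a1 (1.18) rose, while the proline enzyme Pycr1 was at 0.42 and not called (adjusted p = 0.1436). The transporter genes Slc7a1 (1.59), Slc7a5 (1.24) and Slc3a2 (1.05) rose together. The secreted factors rose too. Gdf15 had 26.1, 20.2 and 26.1 CPM, against 1.98, 2.28 and 1.64 CPM, a log2 fold change of 3.61 ± 0.27 (adjusted p = 4.387e-08). Stc2 had 15.2, 22.3 and 18.5 CPM, against 3.74, 3.56 and 2.29 CPM, a log2 fold change of 2.54 ± 0.25 (adjusted p = 8.038e-07). Gdf15, the largest change of the 40 here, had no CARE in either of its 2 windows.

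The ER genes shifted less, and in both directions. Xbp1 had 83, 72.2 and 74.2 CPM with LPS and IFN-gamma, against 97.7, 102 and 102 CPM with LPS, a log2 fold change of -0.39 ± 0.08 (adjusted p = 0.001162). Hspa5 had 1550, 1470 and 1450 CPM, against 1180, 1210 and 1190 CPM, a log2 fold change of 0.32 ± 0.08 (adjusted p = 0.003278). Within the chaperones Sdf2l1 (0.57), Hsp90b1 (0.38) and Calr (0.22) rose and the J-domain co-chaperones Dnajc3 (-0.36) and Dnajb9 (-0.31) fell. The Calr call was lost with no filter on low counts (adjusted p = 0.127), with a replicate block (adjusted p = 0.0501) and on leaving out any of 5 of the 6 libraries compared (adjusted p up to 0.107). Degradation factors split too, since Edem1, which directs misfolded glycoproteins to degradation, rose by 0.83 and Herpud1 fell by 0.42, with Sel1l at 0.11 and not called. Creld2 (0.62), Manf (0.58) and Pdia6 (0.32) rose, and Pdia4 (0.02) and Hyou1 (0.20) were not called.

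Set against untreated glia, LPS with IFN-gamma raised 24 of the 25 amino acid response genes and lowered 0, where 29.5% of all genes tested were called higher and 28.6% lower. DESeq2 gave the same 24 and 0, and 24 had an unadjusted p under 0.05, as had 10047 of all 16073 genes. Of the ER genes 10 rose and 3 (Dnajc3, Dnajb9 and Herpud1) fell, and the medians were 1.43 for the amino acid response genes and 0.94 for the ER genes, beside -0.01 for all genes. This comparison shares its untreated libraries with that of LPS alone and its stimulated libraries with that of IFN-gamma, so it is no separate evidence. The largest changes were Gdf15 (4.85 ± 0.30), Nupr1 (4.21 ± 0.22), Trib3 (3.77 ± 0.21), Ddit3 (3.30 ± 0.11), Stc2 (3.30 ± 0.26) and Mthfd2 (2.94 ± 0.10). Atf4 was at 2.46 ± 0.11 (adjusted p = 2.306e-11), Hspa5 at 1.17 ± 0.08 (adjusted p = 1.616e-09) and Xbp1 at 0.27 ± 0.08 (adjusted p = 0.01022). Leaving out untreated replicate 1 gave the same counts for both lists, 24 and 0, and 10 and 3, where 31% of all genes were called higher and 29.9% lower.

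**Figure D3:**
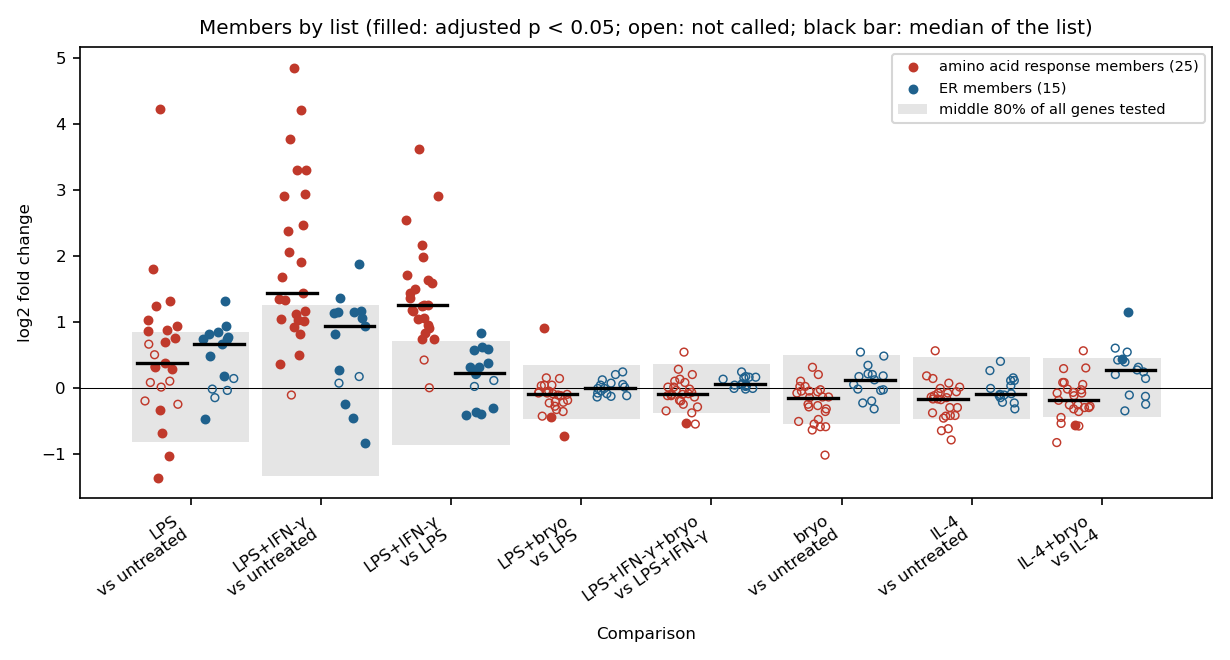
The log2 fold change (linear axis) of each member in 8 comparisons, red for the 25 amino acid response genes and blue for the 15 ER genes, filled where called by edgeR, with the median of each list as a black bar and the middle 80% of all genes tested in grey. With LPS and IFN-gamma against LPS the red median is 1.26 and the blue median 0.22, whereas with LPS against untreated glia they are 0.37 and 0.66.

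Other genes of these pathways, from lists on the same themes, were counted alike. These lists too were chosen with earlier results of these data known, so their counts are no separate evidence. With LPS and IFN-gamma against LPS, 11 of 17 other ATF4 target genes tested, of 18 in the list, rose and 1 fell, led by the cystine carrier Slc7a11 at 350 ± 94.1 CPM, against 60.4 ± 5.48 CPM (SD, n = 3 each), a log2 fold change of 2.53 ± 0.17. The glycine carrier Slc6a9 (1.86), the stress factor Atf3 (1.75) and the translation repressor Eif4ebp1 (1.52) followed. Of 20 cytosolic tRNA synthetase genes 15 rose and 1 fell, with Wars, the tryptophan enzyme and a known interferon-induced gene, at 2.33 ± 0.07, Aars at 1.26, Cars at 1.21 and Gars at 1.1. Of 25 other ER and unfolded protein response genes 6 rose and 3 fell, shares near the 19.2% of all genes called higher and 16.8% called lower, among them the oxidase Ero1l (1.66) and the glycoprotein sensor Uggt1 (0.62) upward and Serp1 (-0.59) and Txndc11 (-0.57) downward. Of 10 sensors and eIF2 components 2 rose (Mbtps2 at 0.53 and Atf6 at 0.36) and 1 fell (Mbtps1 at -0.49); the proteases of the Mbtps genes cut ATF6. That too is near the share over all genes. With LPS against untreated glia the counts were 11 up and 1 down of 17, 18 and 1 of 20, 18 and 1 of 25, and 4 and 0 of 10 in the same order of lists, where 19.5% of all genes were called higher and 18.8% lower. There the double-stranded RNA kinase Eif2ak2, an interferon-induced gene, rose by 1.87 ± 0.13, Cebpb by 2.39 and the glutamine carrier Slc1a5 by 1.76. For the 10 sensors 6 had an unadjusted p under 0.05, as had 7476 of all 16073 genes.

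Bryostatin added to LPS was compared with LPS alone. Ddit3 and Mthfd2 fell and Nupr1 rose, and the other 22 amino acid response genes and all 15 ER genes were not called by edgeR. DESeq2, edgeR with no filter on low counts and edgeR without untreated replicate 1 each called 5 amino acid response genes, with Atf5 (-0.36) and Psat1 (-0.33) also lower (adjusted p = 0.00809 to 0.0229 and 0.00891 to 0.0372). Of all genes tested 3.35% were called higher and 3.55% lower, beside 4.18% and 4.92% by DESeq2, 1.9% and 2.1% with no filter and 6.02% and 7.06% without untreated replicate 1. In the main edgeR fit the 1 rise and 2 falls among the 40 genes were near the shares over all genes. Ddit3 had 28.9, 30.1 and 29.7 CPM with LPS and bryostatin, against 48.3, 51.8 and 46.9 CPM with LPS, a log2 fold change of -0.73 ± 0.10 (adjusted p = 0.0003245). The bryostatin libraries of Ddit3 lay within 2 CPM of each other, well under the LPS libraries. Nupr1 had 562, 668 and 585 CPM, against 293, 335 and 340 CPM, a log2 fold change of 0.91 ± 0.19 (adjusted p = 0.009242). Mthfd2 had 27.8, 31.4 and 25.4 CPM, against 37.4, 41.3 and 35.8 CPM, a log2 fold change of -0.44 ± 0.10 (adjusted p = 0.01249). The groups of all 3 genes stood apart, which is no separate support, since the genes were called on these same libraries. Ddit3, which encodes CHOP, and Nupr1 moved in opposite directions. Leaving out LPS replicate 1 ended the Nupr1 call (adjusted p = 0.0578), and leaving out LPS replicate 2, LPS with bryostatin replicate 1 or replicate 3 ended that of Mthfd2 (adjusted p = 0.0721, 0.0513 and 0.0743). Atf4 itself had 158, 154 and 145 CPM, against 175, 176 and 171 CPM, a log2 fold change of -0.19 with a 95% interval of -0.40 to 0.02 that was not called (adjusted p = 0.3761). Hspa5 was at 1170, 1250 and 1140 CPM, against 1180, 1210 and 1190 CPM, with a log2 fold change of -0.01 and an interval of -0.15 to 0.14, and Xbp1 at -0.05 (-0.21 to 0.10). The ER count was 0 by edgeR and by DESeq2. An unadjusted p under 0.05 was found for 2 of the 15, and for 3099 of all 16073 genes. Median log2 fold changes were -0.10 for the amino acid response genes and -0.01 for the ER genes, beside 0 for all genes. The astrocyte markers summed to 6550 to 6920 CPM with LPS and bryostatin, against 8400 to 8940 CPM with LPS. Of these Aldh1l1 alone was higher, at 345 to 377 CPM, against 248 to 270 CPM. The microglial markers summed to 253 to 272 CPM, against 338 to 382 CPM. The neuron marker sum was 83.2 to 93.8 CPM, against 48.5 to 52.9 CPM. The 5 markers of oligodendrocyte precursors summed to 490 to 521 CPM, against 496 to 529 CPM. Among them Sox10 was lower, at 8 to 10.3 CPM, against 30.6 to 34.5 CPM, as was Olig1. Pdgfra (155 to 167 CPM, against 122 to 143 CPM) and Cspg4 (34 to 46.2 CPM, against 20.4 to 22.3 CPM) were higher, and Olig2 overlapped. Their part in these results was not tested.

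With IFN-gamma also present, bryostatin lowered Ddit3 again and no other member was called. Of all genes tested 1.8% were called higher and 1.58% lower, and the 1 fall among the 40 genes was near that share. Ddit3 had 88.3, 95.2 and 105 CPM with all 3 agents, against 158, 123 and 135 CPM with LPS and IFN-gamma, a log2 fold change of -0.53 ± 0.10 (adjusted p = 0.006008). The call held under each of 11 alternatives, with adjusted p up to 0.0376, as did the one with LPS alone. Atf4 had 386, 465 and 445 CPM, against 522, 418 and 470 CPM, and Hspa5 had 1530, 1630 and 1740 CPM, against 1550, 1470 and 1450 CPM. Both genes' groups overlapped, with log2 fold changes of -0.12 (95% interval -0.33 to 0.09) and 0.13 (-0.01 to 0.28), and Xbp1 was at 0.16 (0 to 0.32). Atf5 had 208, 209 and 236 CPM, against 328, 249 and 275 CPM, with a log2 fold change of -0.38 ± 0.11 just short of the threshold (adjusted p = 0.05987). Nupr1 was at 0.54 ± 0.19 (adjusted p = 0.1605). The ER count was 0 by edgeR, where 1 of 15 had an unadjusted p under 0.05, as had 2447 of all 16073 genes. DESeq2 called 1 ER gene (Pdia6), with 2.89% of all genes higher and 2.44% lower. Median log2 fold changes were -0.10 and 0.05 for the 2 sets, beside -0.01 for all genes. Without untreated replicate 1, a library in neither group that enters the shared dispersion, the amino acid response genes had 1 rise (Nupr1) and 4 falls (Ddit3, Atf5, Gdf15 and Ppp1r15a), where 3.95% of all genes were called higher and 4.45% lower. The astrocyte marker sums were 4330 to 4440 CPM, against 6160 to 6840 CPM, and the microglial sums 193 to 216 CPM, against 236 to 255 CPM. Against these sums, microglial Tmem119 was higher, at 6.01 to 7.8 CPM, against 3.42 to 4.56 CPM, and astrocyte Aldh1l1 overlapped. The neuron sums were 128 to 142 CPM, against 101 to 117 CPM, and the oligodendrocyte precursor sums 247 to 267 CPM, against 203 to 217 CPM. The part of these shifts was not tested.

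Whether the bryostatin change differed with and without IFN-gamma was tested directly. Of all genes 0.118% were called, 0 of them among the 40 by edgeR or DESeq2. An unadjusted p under 0.05 was found for 2 of the 40 (Mthfd2 and Ppp1r15a) and for 1021 of all 16073 genes. For Ddit3 the change with IFN-gamma minus that without was 0.20 on the log2 scale, with a 95% interval of -0.07 to 0.47. For Mthfd2 it was 0.42 ± 0.14 (adjusted p = 0.431). Of 17 other ATF4 targets 0 were called by edgeR and 3 had an unadjusted p under 0.05 in that test, with Slc7a11 at 1.25 ± 0.23, just short of the threshold (adjusted p = 0.0524), and Slc1a5 at 0.73 ± 0.30 (adjusted p = 0.662). Among other pathway genes, bryostatin with LPS lowered the carriers Slc1a5 (-1.12 ± 0.22, adjusted p = 0.00495) and Slc7a11 (-0.83 ± 0.16, adjusted p = 0.00582) and raised Mthfd1l (0.44), a mitochondrial folate enzyme, and the translocon genes Sec61b (0.54) and Sec61a1 (0.30). With IFN-gamma present Slc7a11 was at 0.41 ± 0.16 (adjusted p = 0.198), and bryostatin raised Sec61b (0.39), Sec61a1 (0.26) and the isomerase P4hb (0.29). The remaining counts were 0 by edgeR, where 3 of 20 tRNA synthetase genes and 0 of 10 sensors had an unadjusted p under 0.05 without IFN-gamma, and 3 of 17 other ATF4 targets, 0 of 20 synthetases and 1 of 10 sensors with it. Over all 16073 genes 3099 had one without IFN-gamma and 2447 with it.

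In experiment 2, bryostatin alone was compared with untreated glia. No member was called: 0 of 25 amino acid response genes and 0 of 15 ER genes by edgeR. Of these 7 and 4 had an unadjusted p under 0.05, where 2947 of all 15604 genes had one. DESeq2 called 1 (Slc7a5, lower) and 1 (Hsp90b1, higher), with 4.2% of all genes higher and 4.37% lower. Of all 15604 genes tested 2.11% were called higher and 1.51% lower. Ddit3 had 8.11, 14.1 and 8.8 CPM with bryostatin, against 21, 15.8 and 11.6 CPM untreated, a log2 fold change of -0.64 ± 0.25 (adjusted p = 0.1821). The highest bryostatin value and the highest untreated value of Ddit3 belong to the libraries that stand apart, bryostatin replicate 2 and untreated replicate 1. Without these, edgeR called 5 amino acid response genes lower (Ddit3 at -0.71, Atf5 at -0.63, Phgdh at -0.47, Slc7a5 at -0.44 and Ppp1r15a at -0.37), and of the ER genes Edem1 higher (0.38) and Herpud1 (-0.38) and Dnajb9 (-0.31) lower. In that refit 4.81% of all 15757 genes tested were called higher and 4.04% lower. It was chosen after seeing the data and leaves 2 libraries in each group. Without untreated replicate 1 alone, 0 members of either list were called. Atf4 was at -0.14 (95% interval -0.39 to 0.10), Hspa5 at -0.04 (-0.23 to 0.15) and Xbp1 at 0.05 (-0.22 to 0.31). The medians were -0.15 and 0.12, beside 0 for all genes. The astrocyte marker sum was 8230 to 10400 CPM, against 12300 to 17100 CPM. Of its markers Aldh1l1 alone was higher, at 369 to 517 CPM, against 268 to 346 CPM. The part of these shifts was not tested.

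IL-4 alone gave 0 called members in either list by edgeR or DESeq2, where 0.5% of all genes tested were called higher and 0.0833% lower. At an unadjusted p under 0.05 there were 2 of 25 (Psph at -0.46 and Slc7a1 at 0.56) and 0 of 15, beside 1666 of all 15604 genes. Atf4 had 97.5, 105 and 112 CPM with IL-4, against 112, 115 and 101 CPM untreated, and Hspa5 had 655, 700 and 730 CPM, against 784, 726 and 706 CPM. These groups overlapped, with log2 fold changes of -0.06 (95% interval -0.30 to 0.18) and -0.09 (-0.28 to 0.10). Ddit3 was at -0.17 (-0.64 to 0.31) and Xbp1 at -0.10 (-0.36 to 0.17). The medians of -0.17 and -0.09, beside -0.03 for all genes, became 0.01 and -0.02 without untreated replicate 1.

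Bryostatin added to IL-4 was compared with IL-4 alone. The chaperone genes Sdf2l1 and Hsp90b1 rose and the leucine transporter gene Slc7a5 fell. Of all genes tested 2.7% were called higher and 1.42% lower. Sdf2l1 had 41.2, 55.3 and 45.4 CPM with IL-4 and bryostatin, against 20.2, 24 and 20.1 CPM with IL-4, a log2 fold change of 1.14 ± 0.26 (adjusted p = 0.03147). Hsp90b1, which encodes an ER chaperone of the HSP90 family, had 687, 733 and 686 CPM, against 503, 498 and 547 CPM, a log2 fold change of 0.44 ± 0.10 (adjusted p = 0.03825). Slc7a5 had 55.5, 63.2 and 61.4 CPM, against 77.8, 99 and 91.2 CPM, a log2 fold change of -0.57 ± 0.14 (adjusted p = 0.04999). Each of these 3 calls was lost on leaving out any 1 of the 6 libraries compared, with log2 fold changes of 1.00 to 1.23, 0.40 to 0.49 and -0.67 to -0.49. Xbp1 had 69.3, 82.7 and 82.3 CPM, against 55.7, 69.1 and 70 CPM, at 0.27 ± 0.14 (adjusted p = 0.3753), and Hspa5 had 773, 867 and 816 CPM, against 655, 700 and 730 CPM, at 0.24 ± 0.10 (adjusted p = 0.2388). Ddit3 had 10.4, 10.2 and 8.1 CPM, against 13.5, 16.3 and 13.3 CPM, at -0.58 ± 0.25 (adjusted p = 0.2597). Xbp1, Hspa5 and Ddit3 were thus not called. Edem1 (0.60, adjusted p = 0.05624), Calr (0.54) and Pdia6 (0.42) likewise missed the threshold in edgeR. DESeq2 called all 3 (adjusted p = 0.0148, 0.0177 and 0.0235), as did edgeR without untreated replicate 1 (adjusted p = 0.00871, 0.0367 and 0.039). In each of these alternatives 5 ER genes rose and 1 (Dnajb9) fell, where 5% of all genes were called higher and 2.77% lower by DESeq2, and 5.09% and 3.45% without that library. The medians were -0.19 for the amino acid response genes and 0.27 for the ER genes, beside 0.01 for all genes.

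The 2 libraries of experiment 2 that stand apart are in neither of these groups, but they enter the dispersion estimate that all groups share. Without them, in the alternative chosen after seeing the data, 9 ER genes rose and 2 fell, and 0 amino acid response genes rose and 6 fell, with fold changes close to those above: Edem1 at 0.60 (adjusted p = 0.000266), Calr at 0.53 (0.000384), Pdia6 at 0.41 (0.000688), Dnajb9 at -0.36 (0.00212), Ddit3 at -0.59 (0.00931) and Atf5 at -0.46 (0.00376). In that refit 11.2% of all 15757 genes tested were called higher and 8.95% lower. The astrocyte marker sum was 8170 to 9310 CPM with IL-4 and bryostatin, against 11300 to 12100 CPM with IL-4. Of its markers Aldh1l1 alone was higher, at 378 to 440 CPM, against 242 to 254 CPM. The neuron marker sum was 72.8 to 82.4 CPM, against 40 to 49.7 CPM. Their part was not tested. The bryostatin change with IL-4 minus that without was called for 0% of all genes tested by edgeR, though 327 had an unadjusted p under 0.05 and DESeq2 called 4. Among the 40 genes 0 were called by edgeR and by DESeq2, and 0 had an unadjusted p under 0.05. For Ddit3 that difference was 0.06, with a 95% interval of -0.62 to 0.74. Of the other pathway lists, 1 of 20 tRNA synthetase genes (Rars, 0.59) rose with IL-4 and bryostatin and no gene of the other 3 lists was called by edgeR. Among these 3 lists 2 of 17 ATF4 targets, 1 of 10 sensors and 7 of 25 ER genes had an unadjusted p under 0.05, beside 2578 of all 15604 genes. With bryostatin alone the 4 lists had 0 called genes and 3, 2, 0 and 2 with an unadjusted p under 0.05 (ATF4 targets, synthetases, sensors, ER genes), and with IL-4 alone 0 called and 1, 1, 0 and 0. Over all 15604 genes 2947 had one with bryostatin alone and 1666 with IL-4 alone.

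**Figure D4:**
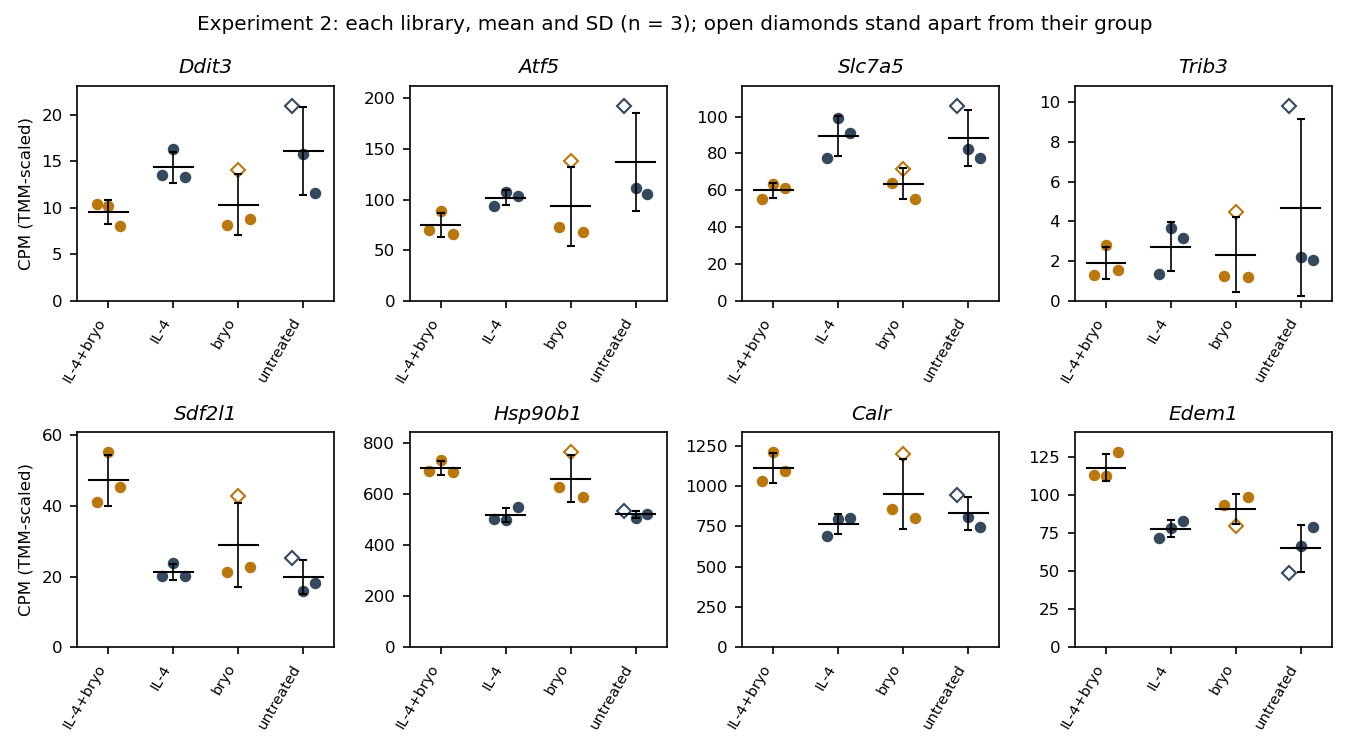
CPM scaled with TMM factors (linear axis) of 8 members in the 12 libraries of experiment 2, each point a library, with mean and SD (n = 3), bryostatin groups in orange and the libraries that stand apart as open diamonds. Sdf2l1 is at 41.2 to 55.3 CPM with IL-4 and bryostatin, above the IL-4 libraries (20.1 to 24 CPM), and the diamond of untreated Trib3 (9.82 CPM) lies far above its mates.

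Across the 4 comparisons of bryostatin, Ddit3 had log2 fold changes of -0.73, -0.53, -0.64 and -0.58, of which both of experiment 1 were called. No library enters more than 1 of these 4 comparisons. Atf5, a close relative of ATF4, was at -0.36, -0.38, -0.55 and -0.45 in the same order with adjusted p over the threshold in each by edgeR on all libraries and genes past the filter. DESeq2 called it in both of experiment 1 (adjusted p = 0.0182 and 0.0219). So did edgeR with no filter (0.00809 and 0.007) and without untreated replicate 1 (0.0229 and 0.0223). The replicate block called it in none of the 4 comparisons. Among refits without a single library, only that without LPS with IFN-gamma replicate 2 called it (edgeR adjusted p = 0.0395). In experiment 2 neither DESeq2 nor edgeR with no filter or without untreated replicate 1 called Atf5. There only edgeR without the 2 libraries that stand apart called it (0.00448 and 0.00376), a refit chosen after seeing the data. Sdf2l1 was at -0.14 and -0.01 in experiment 1, at 0.54 with bryostatin alone and at 1.14 with IL-4. Only the last was called, and that call was lost on leaving out any 1 library compared. With bryostatin alone Sdf2l1 was at 42.8 CPM in replicate 2, which stands apart. Replicates 1 and 3 were at 21.4 and 22.7 CPM, against 16.1 to 25.3 CPM untreated.

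**Figure D5:**
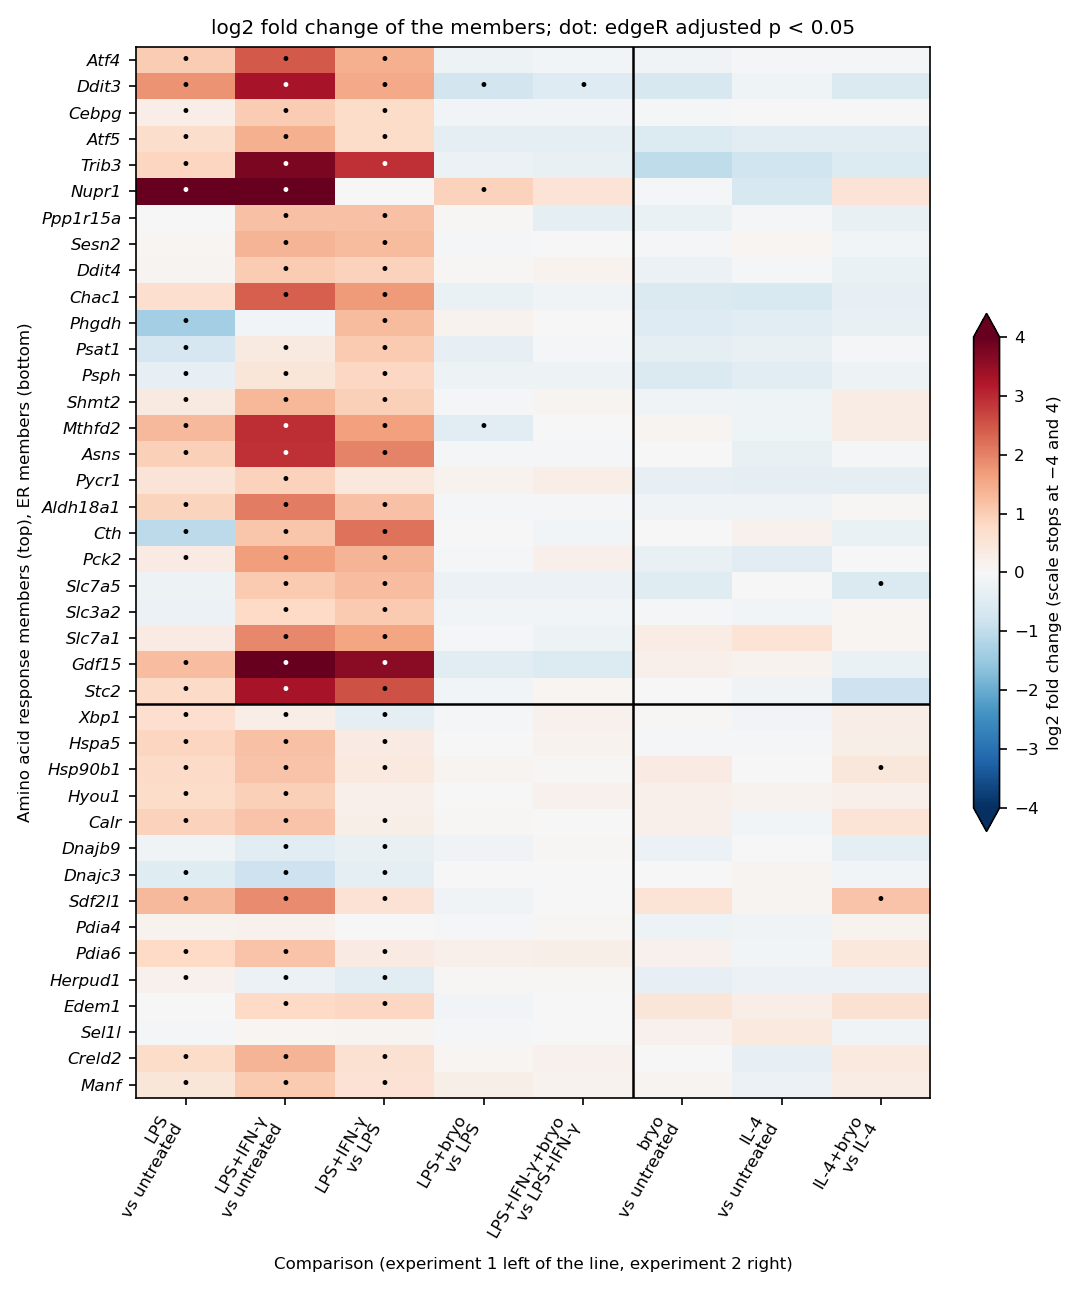
The log2 fold change (colour, stopping at -4 and 4) of the 40 members, amino acid response genes above the horizontal line and ER genes below it, in 8 comparisons, with a dot where edgeR called the gene. The column of LPS and IFN-gamma against LPS has dots in 23 of 25 rows above the line, while the bryostatin columns hold few.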

How the data were processed

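RNA sequencing of 27 mixed glia libraries was analysed from the deposited count table, whose values are raw read counts per gene. Per the submitters' processing notes, fastp, STAR and featureCounts were used on mm10; versions are not given in the sources used here. Per the labels, the libraries were unstranded poly-A, so reads of overlapping antisense genes cannot be told apart. The authors also deposited FPKM values, used only to compare levels between genes, and gene lengths.

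Each experiment was fitted with all its groups in edgeR 4.0.16 (filterByExpr, TMM, robust quasi-likelihood F test, R 4.3.3), and p-values were adjusted by Benjamini-Hochberg over all genes tested, 16073 in experiment 1 and 15604 in experiment 2. Called means an adjusted p under 0.05. Overlap of groups was looked at for members only, so its share over all genes is not known. The script was tested on simulated data. Library totals of 17230058 to 28687281 put 3 counts at 0.105 to 0.174 CPM. Ddit3 has 2 rows, of which the second holds 0 counts and was not used.

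Members and lists were chosen with earlier results of these data known. Values per library are given for Atf4, Ddit3, Hspa5 and Xbp1 and for up to 6 called members with the largest change per comparison; up to 4 called genes are named from each other list. Alternatives were DESeq2 1.42.0, its size factors in edgeR, no filter on low counts, a replicate block, and leaving out libraries singly or together. The labels do not say if replicate numbers pair libraries, and no pairing was modelled in the main fit. Of same-number pairs 3 of 30 in experiment 1 and 6 of 18 in experiment 2 correlated above 0.1, at r up to 0.3 and 0.534. This does not exclude pairing.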

Additional observations from a re-analysis of the deposited data

How the results depend on the processing

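No called log2 fold change of a member changed sign under the alternatives run. Signs of values not called changed 218 times on leaving out 1 library, where 642 of all 2880 values were called. Without the untreated replicate 1 libraries they changed 34 times, where 107 of all 400 values were called. Leaving out 1 library kept 598 of 642 calls, lost 44 and gained 8. Counts of called members moved by over 1.5 times only with bryostatin. DESeq2 called 5 amino acid response genes with LPS and bryostatin against LPS, 2 with IFN-gamma added, 2 with IL-4 and 1 with bryostatin alone, and 6, 1 and 1 ER genes with IL-4, with IFN-gamma and LPS, and alone. With no filter on low counts the amino acid counts were 5 with LPS and 3 with LPS and IFN-gamma. Without both untreated replicate 1 libraries they were 5 and 5, and 6 ER genes were called with IL-4. Without both libraries of experiment 2 that stand apart, 5 amino acid response and 3 ER genes were called with bryostatin alone, and 6 and 11 with IL-4 and bryostatin against IL-4. These libraries enter the shared dispersion of every comparison in their experiment.

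The replicate block left 0 amino acid response genes called with IL-4 and bryostatin (Slc7a5 adjusted p = 0.0751) and 2 ER genes, with Hsp90b1 lost (0.0628; 0.0802 with no filter) and Edem1 gained (0.0392); it also ended the calls of Calr with IFN-gamma and of Herpud1 with LPS. It kept 395 of 400 member values on their side of the threshold. Whether the numbers pair libraries is not known, with 9 of 15 and 5 of 12 libraries closest to their own number.

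Over all genes, DESeq2 called 1337 with bryostatin alone, 1213 with IL-4 and bryostatin, 223 with IL-4, 856 with bryostatin on LPS and IFN-gamma, and 95 and 4 in the tests of difference with IFN-gamma and with IL-4. No filter gave 55 in the IFN-gamma test of difference. Without the untreated replicate 1 libraries the counts were 2148 with bryostatin on LPS, 1380 on LPS and IFN-gamma, 114 in that test of difference and 1355 with IL-4 and bryostatin. Without the 2 that stand apart they were 1395, 162 and 3169 with bryostatin, IL-4 and both, and 1 in the IL-4 test of difference.

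Leaving out single libraries, amino acid counts ran 15 to 18 with LPS, 24 to 24 with LPS and IFN-gamma against untreated glia, 23 to 23 against LPS, 2 to 3 with bryostatin on LPS, 1 to 2 on LPS and IFN-gamma, 0 to 1 alone, and 0 to 0 with IL-4, IL-4 and bryostatin and both tests of difference. ER counts ran 10 to 10, 13 to 13 and 11 to 12 in the first 3 of these, 0 to 1 with bryostatin alone and 0 to 0 in the rest. All-gene counts ran 5100 to 7032, 8454 to 9997, 4631 to 5239, 588 to 689, 242 to 434 and 188 to 824 in the same order, 66 to 96 with IL-4, 172 to 371 with IL-4 and bryostatin, and 4 to 19 and 0 to 0 in the tests of difference with IFN-gamma and with IL-4. Low levels gave wide intervals: Stc2 with IL-4 and bryostatin was at 1.03 ± 0.372 CPM, against 1.87 ± 0.768 CPM with IL-4 (SD, n = 3), a log2 fold change of -0.83 with a 95% interval of -1.64 to -0.02 (edgeR adjusted p = 0.3584). Its unadjusted p was not under 0.05 although this interval leaves out 0, because the intervals are normal approximations and run narrower than the F test.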

Other observations

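Within the untreated libraries the members differed along with the libraries that stand apart. In experiment 2, untreated replicate 1 had Trib3 at 9.82 CPM, against 2.2 and 2.05 CPM in replicates 2 and 3. Nupr1 was at 38.2 CPM there, against 15.8 and 12 CPM, Atf5 at 193 CPM, against 112 and 106 CPM, and Phgdh at 235 CPM, against 161 and 131 CPM. The same library had an ependymal marker sum of 641 CPM, against 233 and 221 CPM. In experiment 1, untreated replicate 1 had the lower Trib3 level, 2.31 CPM against 4.3 and 4.96 CPM, and the lower ependymal sum, 219 CPM against 569 and 559 CPM. The part of cell makeup in these levels was not tested.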
